A study of Oryctolagus cuniculus with 4 samples.

Results

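TGFB2 and BMP4 encode secreted ligands of the TGF-beta superfamily, and their transcripts were followed here in the ligamentum flavum of rabbits with a fused lumbar spine. Every array probe whose RefSeq transcript accession belongs to rabbit TGFB2 or BMP4 was taken, which gave 8 probes of 43603, 3 for TGFB2 (NM_001082660) and 5 for BMP4 (NM_001195723). These are 2 of the 1489 genes that could be named by such an accession. The ligamentum flavum is an elastic ligament between the arches of adjacent vertebrae. Per the labels, male rabbits aged 18 weeks had the supraspinal muscle of L3-4 resected and L2-3 and L4-5 fused posterolaterally with instrumentation, and all samples are of age 34 weeks, 16 weeks after surgery.

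The 4 groups were the intervertebral stress concentration level at L3/4 (ISC level), which lies between the fused segments, the control level of L3/4 (L3/4 control), the fused levels of L2/3 and L4/5, and the control level for those segments (neighbouring-level control). Total RNA of each group was labelled with Cy3 and measured on 1 single-colour Agilent array, and all 4 arrays lie on 1 slide. No strain or genotype is named in the labels. Whether several animals or both fused levels were pooled in a sample, and whether control rabbits had any operation, is not given in the sources used here. Stress and local surgery cannot be told apart at the ISC level, nor fusion and its surgery at the fused levels.

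There was 1 array for each group and no replicate, so no difference below has a p-value or a spread between animals, and precision is limited by the number of arrays. A level is log2 of the processed spot signal minus that array's 75th percentile, and a ratio is a difference of levels. Each ± is the error that the scanner software attached to the spot, carried to the log2 scale, and covers technical error within arrays only. Counts use a fixed size of 2-fold, which is 1 on the log2 scale and not a test. From 59.6% to 67.9% of probes were well above background on the 4 arrays. The fused array held high signal of neutrophil genes and the neighbouring-level control high signal of skeletal muscle genes. TNMD, which defines tendon and ligament cells, was detected well above background on 3 arrays and not on the fused one.

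TGF-beta ligands are secreted in a latent form that matrix proteins hold until it is activated. Active ligand binds the type II receptor TGFBR2, which recruits a type I receptor that phosphorylates SMAD2 and SMAD3, and in fibroblasts this raises collagen and protease inhibitor genes. TGFB2 binds its receptors efficiently only with the co-receptor betaglycan. BMP4 signals through BMP receptors to SMAD1 and SMAD5, is held back by antagonists such as noggin, and is known for its part in bone and cartilage formation.

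TGFB2 had its highest signal at the ISC level. The brightest probe, A_04_P001176, read a processed signal of 184.2 at the ISC level, 43.6 in the L3/4 control, 74.3 at the fused levels and 122.6 in the neighbouring-level control. After scaling, the TGFB2 levels were 0.97 ± 0.15 at the ISC level, 0.75 ± 0.15 in the neighbouring-level control, −0.20 ± 0.15 at the fused levels and −0.29 ± 0.15 in the L3/4 control. The ISC level and the neighbouring-level control thus formed a high pair, and the fused levels and the L3/4 control a low pair. Within each pair the scaled levels were close: the ISC level was above the neighbouring-level control by 0.22 ± 0.21, and the fused levels were above the L3/4 control by 0.09 ± 0.21. The latter difference was smaller than the technical error and the former about equal to it. This closeness rests on the scaling, since the unscaled ratios were 0.59 and 0.77.

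The other TGFB2 probes gave the same order of arrays. Probe A_04_P001178 read 170.0 at the ISC level, 39.4 in the L3/4 control, 66.7 at the fused levels and 117.3 in the neighbouring-level control. The dim probe A_04_P001177 read 63.5, 12.9, 25.3 and 46.1 on the same arrays in that order. Its lowest signal, 12.9 in the L3/4 control, still lay above 6.01, the lowest signal called well above background on that array. All 12 TGFB2 spots were well above background.

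BMP4 ran in the opposite order. Its brightest probe, A_04_P004658, read a processed signal of 184.8 at the ISC level, 261.4 in the L3/4 control, 324.1 at the fused levels and 188.7 in the neighbouring-level control. The scaled BMP4 levels were 2.29 ± 0.14 in the L3/4 control, 1.92 ± 0.14 at the fused levels, 1.37 ± 0.14 in the neighbouring-level control and 0.98 ± 0.15 at the ISC level. BMP4 was thus lowest where TGFB2 was highest and highest where TGFB2 was lowest. The fused levels lay below the L3/4 control by 0.37 on the log2 scale (ratio −0.37 ± 0.20), and the ISC level below the neighbouring-level control (ratio −0.40 ± 0.20). Both gaps were less than 2 times the technical error in this probe. Without scaling the former ratio was 0.31, so its direction rests on the scaling, and the latter was −0.030.

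The 5 BMP4 probes differed little among themselves. Their levels ranged from 0.82 to 0.98 at the ISC level, from 2.16 to 2.29 in the L3/4 control, from 1.78 to 1.92 at the fused levels and from 1.25 to 1.46 in the neighbouring-level control. These ranges of scaled levels do not overlap between any of the 4 arrays, but this rests on the scaling. The lowest processed signal in the neighbouring-level control was 173.2, below the highest at the ISC level, 184.8, so unscaled these ranges overlap. The lowest processed signal at the fused levels, 293.1, was above the highest in the L3/4 control, 261.4, the reverse of their scaled order. How many other transcripts have ranges that do not overlap was not counted. All 20 BMP4 spots were well above background, and all 5 probes ranked the arrays in 1 order. Probes of a gene hybridise to the same RNA sample and are not replicates of a condition.

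**Figure D1:**
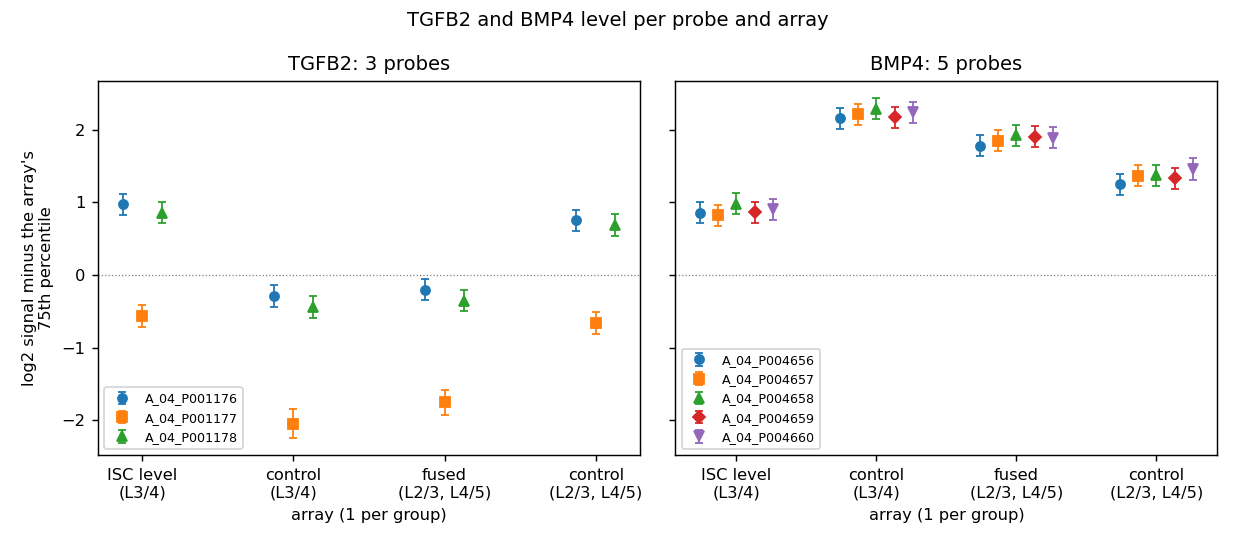
Level of each TGFB2 probe (left, 3 probes) and BMP4 probe (right, 5 probes) on the 4 arrays, as log2 processed signal minus the array's 75th percentile; bars are the scanner software's error of the spot. TGFB2 is high at the ISC level and in the neighbouring-level control and low on the other arrays, and BMP4 runs in the opposite order.

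The ISC level was first set against the L3/4 control, a comparison in which mechanical stress and local surgery cannot be told apart. TGFB2 was higher at the ISC level, with a ratio of 1.27 ± 0.21, which is 2.41-fold. Its other probes gave 1.30 ± 0.21 and 1.48 ± 0.25, so all 3 were past 2-fold. BMP4 was lower at the ISC level, with a ratio of −1.31 ± 0.20, a 2.48-fold difference, and its 5 probes ranged from −1.39 to −1.30, all past 2-fold. In bulk tissue, fewer cells that make a transcript and less of it per cell cannot be told apart.

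As background, 9.11% of 13729 features (a named gene, or an unnamed transcript) stood 2-fold or more above the control and 10.5% 2-fold or more below it. A ratio at or above that of TGFB2 was seen in 5.67% of features, and one at or below that of BMP4 in 5.19%. Among 2892 transcripts with at least 3 measured probes, every probe was 2-fold higher in 4.84%, as for TGFB2, and every probe 2-fold lower in 4.91%, as for BMP4. The share of 2-fold differences that were higher was 46.5%, beside 58.9% with the authors' scaling and 66.3% with normexp background correction at offset 50.

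Scaling sets much of both ratios here, since the ISC array was brighter as a whole. The arrays' 75th percentiles differ by 0.81 on the log2 scale, which the scaling takes off. The unscaled ratio to the L3/4 control was 2.08 for TGFB2 and −0.50 for BMP4. The TGFB2 ratio exceeded the BMP4 ratio by 2.58 ± 0.29, a difference that a single scaling factor per array leaves as it is. It was 2.47 with quantile normalization and 1.70 with normexp at offset 50.

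Both ratios were smaller against the other control array. There TGFB2 was at 0.22 ± 0.21, with its other probes at 0.17 and 0.095, and the 5 BMP4 probes ranged from −0.55 to −0.39. No probe of either gene was 2-fold apart from that control. The TGFB2 ratio exceeded the BMP4 ratio by 0.62 ± 0.29 in this setting.

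The fused levels were next set against the neighbouring-level control, a comparison in which fusion and its surgery cannot be told apart. TGFB2 was lower at the fused levels, with a ratio of −0.95 ± 0.21, just under 2-fold in the brightest probe. Its other probes gave −1.04 ± 0.21 and −1.10 ± 0.23, so that 2 of 3 were past 2-fold. BMP4 was higher at the fused levels, with a ratio of 0.55 ± 0.20 (1.46-fold), and its 5 probes ranged from 0.43 to 0.57. None of them reached 2-fold.

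Of 13717 features, 7.84% stood 2-fold or more above the control and 9.12% 2-fold or more below it. The share of 2-fold differences that were higher was 46.2%, and 62.8% with normexp at offset 50. A ratio at or below that of TGFB2 was seen in 9.93% of features, and one at or above that of BMP4 in 16.5%. The unscaled ratios were −0.72 for TGFB2 and 0.78 for BMP4, and the TGFB2 ratio lay below the BMP4 ratio, with a difference of −1.50 ± 0.29. When the L3/4 control was the reference, TGFB2 stood at 0.09 ± 0.21, with probes from 0.08 to 0.29. BMP4 was at −0.37 ± 0.20 there, with probes from −0.38 to −0.27.

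The direction of both genes was thus opposite at the ISC level and at the fused levels, each set against its own control, and these comparisons share no array. Of 12741 features measured on all 4 arrays, 25.9% also had opposite directions past the technical error in these comparisons.

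The control arrays differed from each other in both genes, by amounts that lay between those of the ISC level and of the fused levels against their controls. TGFB2 was lower in the L3/4 control than in the neighbouring-level control, with a ratio of −1.04 ± 0.21 and probes from −1.39 to −1.04, all 3 past 2-fold. BMP4 was higher there, with a ratio of 0.92 ± 0.20 and probes from 0.78 to 0.92, none of them at 2-fold. In this comparison 8.43% of 13137 features were 2-fold or more higher in the L3/4 control and 9.15% 2-fold or more lower, so that 48.0% of 2-fold differences were higher, and 34.4% with normexp at offset 50. Every probe was 2-fold lower in 5.07% of 2760 transcripts with at least 3 measured probes, as for TGFB2. TGFB2 in the L3/4 control was below every other array, though within the technical error of the fused levels, and BMP4 was above every other array. Since this array is also the reference of the ISC level, the ratios of these comparisons share an array and are not independent of each other.

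The direct comparison of the ISC level with the fused levels uses no control array. TGFB2 was higher at the ISC level by 1.18 ± 0.21, with its 3 probes between 1.18 and 1.21, the narrowest range of any TGFB2 comparison. BMP4 was lower, with a ratio of −0.95 ± 0.20, and 2 of its 5 probes, which ranged from −1.04 to −0.92, passed 2-fold. Of 14564 features, 6.99% were 2-fold or more higher and 7.75% 2-fold or more lower at the ISC level, so that 47.4% of 2-fold differences were higher, and 36.2% with normexp at offset 50. Every probe was 2-fold higher in 4.16% of 3222 transcripts with at least 3 measured probes, as for TGFB2. A ratio at or above that of TGFB2 was seen in 4.84% of features and one at or below that of BMP4 in 8.50%. The TGFB2 ratio exceeded the BMP4 ratio by 2.12 ± 0.29. These arrays come from different lumbar levels, which cannot be told apart from the operation.

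**Figure D2:**
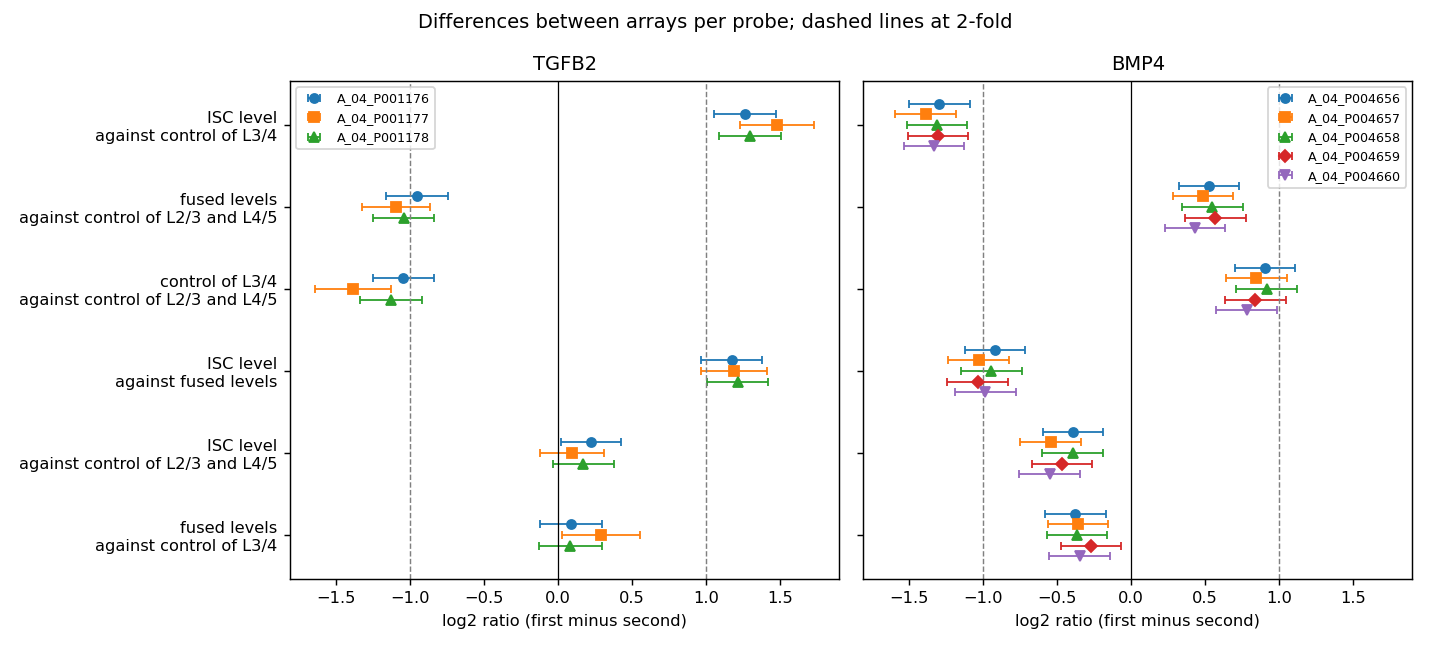
Log2 ratio of each TGFB2 probe (left) and BMP4 probe (right) in 6 comparisons of arrays, with the scanner software's error as bars; dashed lines mark 2-fold. TGFB2 is 2-fold higher at the ISC level than in the L3/4 control and the fused levels in all 3 probes, and all 8 probes lie within 2-fold in the comparisons at the bottom, where an operated level is set against the control of the other segments.

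**Figure D3:**
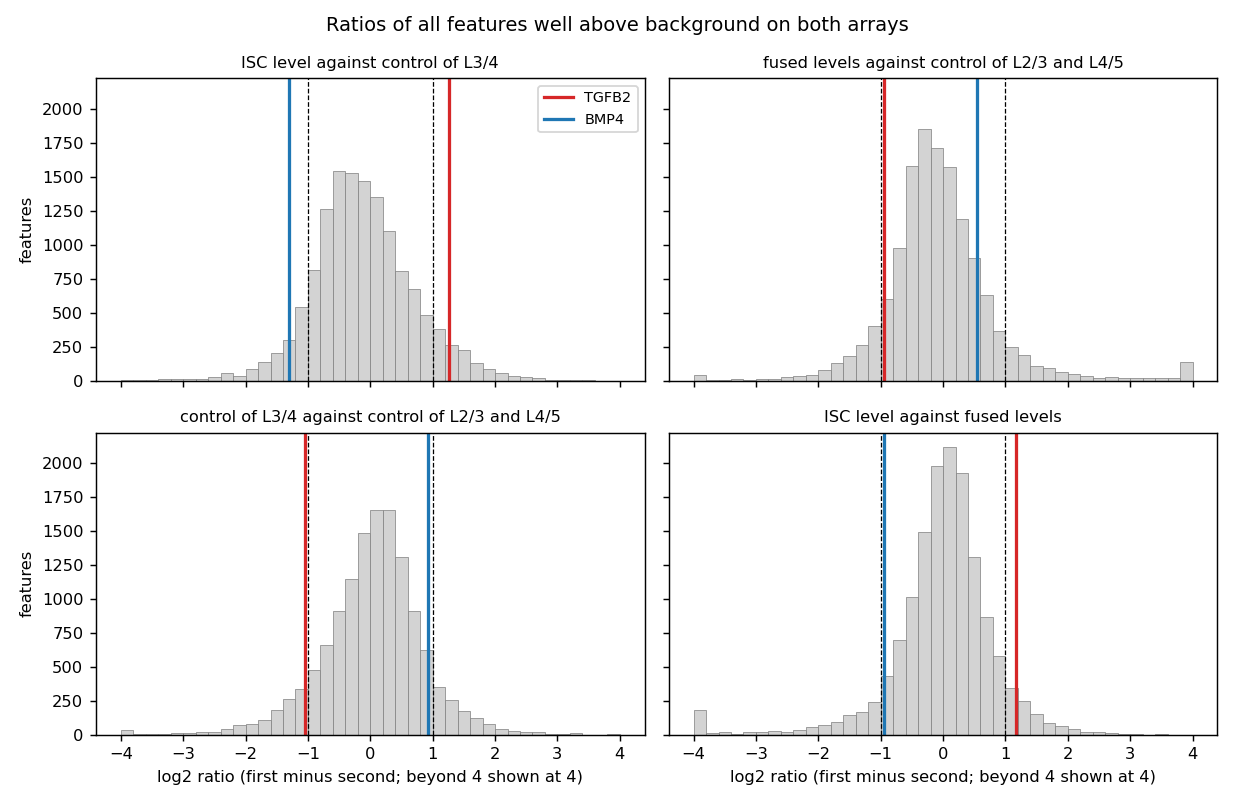
Number of features by log2 ratio in 4 comparisons (bins of 0.2, ratios beyond 4 in the outer bins), over features well above background on both arrays; lines mark TGFB2 (red) and BMP4 (blue), dashed lines 2-fold. The genes lie on opposite sides of the distribution in each panel, with 5.67% of features at or above TGFB2 and 5.19% at or below BMP4 in the first.

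Over all 4 arrays the brightest TGFB2 probe spanned 1.27 and the brightest BMP4 probe 1.31 on the log2 scale. The median feature spanned 0.89, and 28.2% of features spanned more than TGFB2 and 26.2% more than BMP4. The array order of TGFB2 was shared by 4.69% of 12741 features and that of BMP4 by 5.53%, of 24 orders seen. In 18.3% of features the ISC level and the neighbouring-level control were both above the other arrays, as for TGFB2, and in 17.0% both below, as for BMP4.

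The other genes of the pathway were taken from a list of 130 symbols in 5 roles, of which 21 could be named on the array. No SMAD gene of the list could be named, nor could TGFB1 or TGFB3, so these are not reported here. Of the named genes, 15 were measured on both arrays for the ISC level and its control. Of these 3 were past 2-fold upwards (20.0%, beside 9.11% of all features) and 2 downwards (13.3%, beside 10.5%). This split depends on the processing: it was 5 upwards and 1 downwards with quantile normalization, 4 and 1 with the authors' scaling, and 4 and 0 with normexp at offset 50. The counts of 3 and 2 include the ligands TGFB2 and BMP4 themselves. The list had a median ratio of 0.48, beside −0.16 over all features. Against the other control its median was 0.03, beside −0.07.

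Among the other ligands, BMP2, a bone-forming relative of BMP4, stood at a level of 3.18 at the ISC level, 3.53 in the L3/4 control, 2.35 at the fused levels and 3.15 in the neighbouring-level control. Its ratio was −0.35 for the ISC level, with 8 probes from −1.54 to −0.12, and −0.80 for the fused levels. BMP2 was lowest at the fused levels, where BMP4 was not. MSTN, myostatin, a ligand that limits muscle growth, was at 0.21 for the ISC level and −0.92 for the fused levels. GDF5, GDF9 and INHA were not well above background on both arrays of any comparison.

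Only 2 receptors could be named. TGFBR2, the type II receptor that binds TGF-beta ligands, had levels of −1.21 at the ISC level, −1.77 in the L3/4 control, −1.04 at the fused levels and −1.07 in the neighbouring-level control. It was low in the L3/4 control alone, with a ratio of 0.56 for the ISC level and 0.03 for the fused levels. TGFBR2 has 1 probe, and this low value depends on the processing. With normexp at offset 50 the ratio was 0.003 for the ISC level and −0.05 between the controls, beside −0.70 between them in the main processing. AMHR2, the receptor of anti-Müllerian hormone, was at 0.06 and −0.39 in these comparisons.

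The extracellular regulators include proteoglycans that bind TGF-beta and proteases that act on matrix or on latent complexes. BGN, biglycan, had levels of 5.77 at the ISC level, 5.62 in the neighbouring-level control, 4.50 in the L3/4 control and 3.55 at the fused levels. Like TGFB2, it was higher on the first pair of arrays than on the second. Its ratio for the ISC level was 1.27, with its 2 probes at 0.47 and 1.27, and for the fused levels −2.07. MMP2, a gelatinase, had the same order of arrays as BGN, with ratios of 0.48 and −0.70, and its 6 probes ranged from 0.48 to 1.28 for the ISC level. DCN, decorin, was at −0.23 and 0.07, and its 6 probes ranged from −1.40 to −0.23 for the ISC level. PLAU, urokinase, was the list gene that was 2-fold higher at the fused levels, at 1.01, with a probe of the opposite sign at −0.58. ITGB8, a chain of an integrin that activates latent TGF-beta, was at −0.87 for the fused levels. This brightest of its 5 probes was not well above background in the L3/4 control, but another probe was, with a ratio to that control of −0.38 for the ISC level and −0.81 for the fused levels. MMP14, a membrane-bound protease, was not measured in any comparison.

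Of the 5 genes listed as targets, 3 were high on the pair of arrays where TGFB2 was high, a pattern seen in 18.3% of all features. COL1A2, which encodes part of type I collagen, was at 0.89 for the ISC level and −0.62 for the fused levels. Its 11 probes ranged from 0.73 to 1.49 for the ISC level, and against the other control it was at 0.38 and −0.10. TIMP1, an inhibitor of metalloproteases, was at 1.05 and −1.26, and against the other control at 0.04 and −0.25. TIMP3, another such inhibitor, was at 0.67 and −0.41, and against the other control at 0.12 and 0.15. It had exactly the array order of TGFB2. ACTA2, smooth muscle actin, had the array order of BMP4, with levels of 3.54 in the L3/4 control, 3.14 at the fused levels, 2.91 in the neighbouring-level control and 2.49 at the ISC level. Its ratios were −1.04 for the ISC level and 0.23 for the fused levels. SPP1, osteopontin, shared neither order.

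For the fused levels 1 of 16 measured list genes was past 2-fold upwards (6.25%, beside 7.84% of all features) and 2 downwards, BGN and TIMP1 (12.5%, beside 9.12%). With the authors' scaling the split was 0 upwards and 2 downwards, and with normexp at offset 50 it was 0 and 1. The list median was −0.62, beside −0.13 over all features, and −0.25 against the other control, beside −0.19. Between the controls 0 of 15 list genes were past 2-fold upwards (beside 8.43% of all features) and 3 downwards in the L3/4 control (20.0%, beside 9.15%). These were TGFB2, BGN at −1.12, with its other probe at −0.22, and TIMP1 at −1.01. The median was −0.37, beside 0.08 over all features. The ISC level had 5 of 17 list genes 2-fold or more above the fused levels (29.4%, beside 6.99% of all features) and 0 below them (beside 7.75%). These were TGFB2, BGN at 2.22, MMP2 at 1.12, TIMP1 at 1.29 and MMP9, another gelatinase, at 1.30, and the median was 0.66, beside 0.05. MMP9 has 1 probe, which was dim, with a level of −3.30 at the fused levels, and not well above background on either control array. Its ratio was 0.24 with normexp at offset 50. The split was 6 and 0 with quantile normalization and 4 and 0 with normexp at offset 50.

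Over the 15 list genes measured on all 4 arrays, 8 had both the ISC level and the neighbouring-level control above the other arrays (53.3%, beside 18.3% of all features). These were TGFB2, MSTN, AMHR2, BGN, MMP2, COL1A2, TIMP1 and TIMP3. The order was reversed in 2 of 15, BMP4 and ACTA2 (13.3%, beside 17.0%). These counts take a gap of any size, also one within the technical error. AMHR2 had a ratio of only 0.06 for the ISC level against the L3/4 control, and MMP2 of −0.06 between the controls. With normexp at offset 50 the former ratio was −0.16 for AMHR2 and −0.09 for MSTN, so neither kept the pattern. The pattern itself was taken from TGFB2, which is counted in it. The list was chosen with earlier results of these arrays known, so these counts describe it only.

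**Figure D4:**
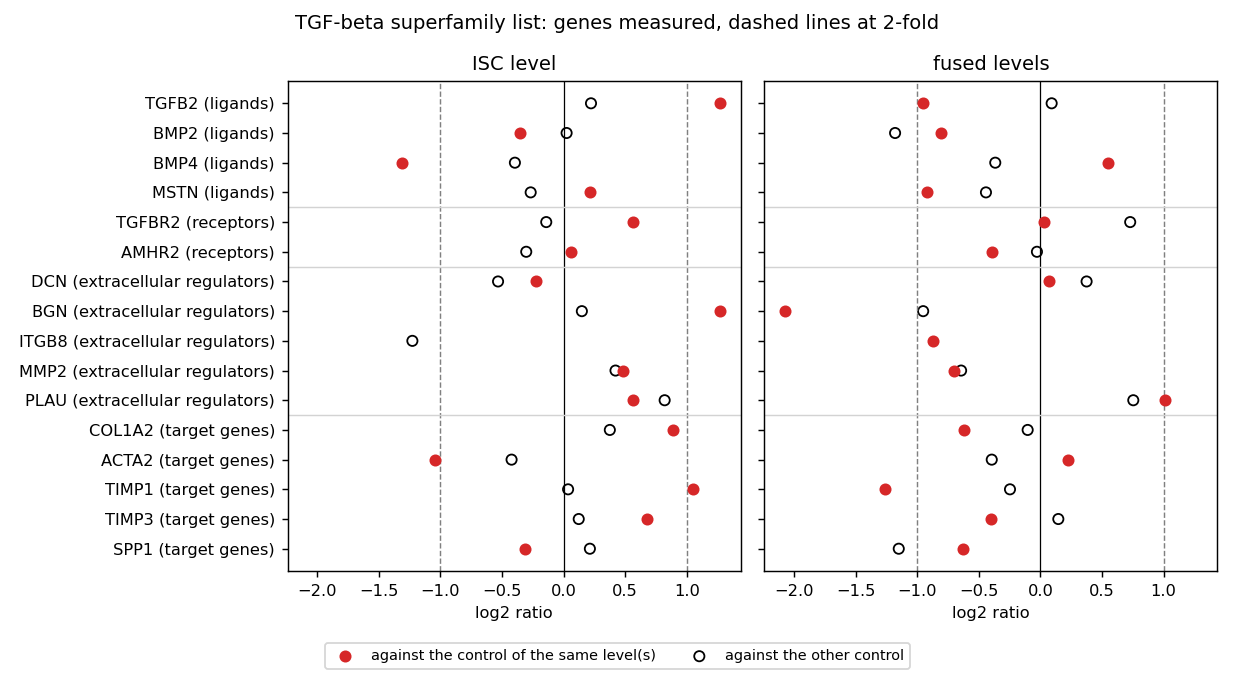
Log2 ratios of the measured genes of the TGF-beta superfamily list at the ISC level (left) and the fused levels (right), grouped by role; filled points use the control of the same levels, open circles the other control, and dashed lines mark 2-fold. TGFB2, BGN and TIMP1 are past 2-fold on the right of the left panel, and their open circles lie between 0.04 and 0.22.

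The 3 named genes nearest to TGFB2 in profile over the 4 arrays, of 885, were SPRTN, CCL2 and TVP23C, with root mean square differences of 0.097, 0.10 and 0.10 on the log2 scale. CCL2, a chemokine that attracts monocytes, had levels of −0.24 at the ISC level, −1.78 in the L3/4 control, −1.62 at the fused levels and −0.62 in the neighbouring-level control. SPRTN encodes a protease that repairs DNA-protein crosslinks. Nearest to BMP4 were HBQ1, a globin gene, RPL23A, a ribosomal protein gene, and LOC100354992, which has no gene name, at 0.11, 0.12 and 0.14. The profile of RPL23A was 6.84 at the ISC level, 7.93 in the L3/4 control, 7.45 at the fused levels and 7.04 in the neighbouring-level control. Of the 885 named genes, 13 lay within 0.2 of TGFB2 and 17 within 0.2 of BMP4.

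**Figure D5:**
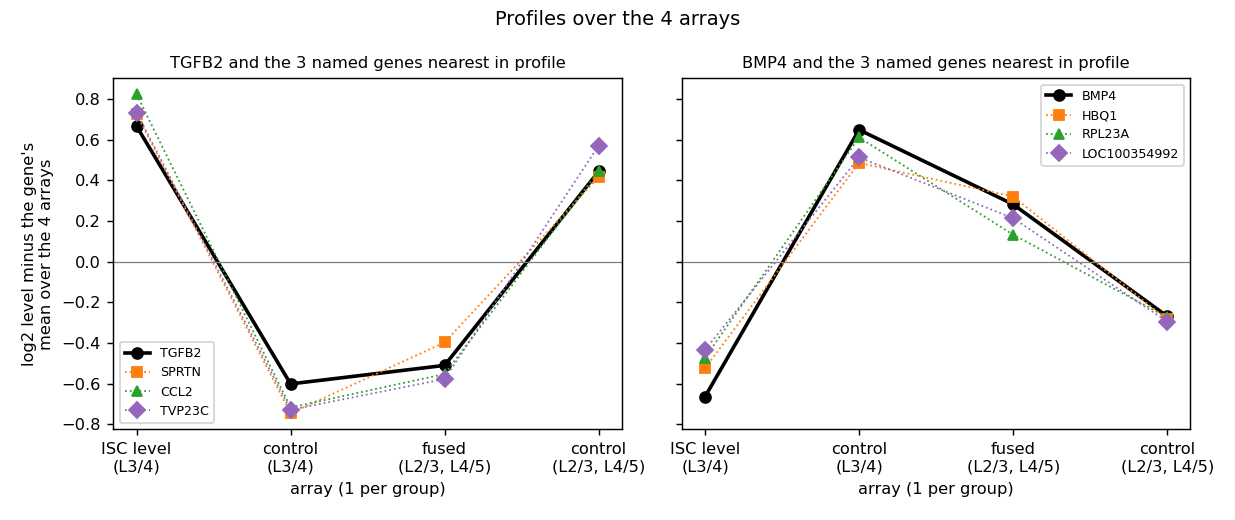
Log2 level minus the gene's own mean over the 4 arrays, for TGFB2 (left) and BMP4 (right) with the 3 named genes nearest in profile; lines join the arrays of a gene and imply no order among groups. TGFB2, SPRTN, CCL2 and TVP23C are above their mean at the ISC level and in the neighbouring-level control, and BMP4 and its neighbours below theirs.

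Markers of other cell types also differed between the arrays. The 2 haemoglobin genes had a summed level (signals over the array's 75th percentile) of 433.5 at the ISC level, 779.2 in the L3/4 control, 1151 at the fused levels and 271.6 in the neighbouring-level control, so they were high on the arrays where BMP4 was high. S100B, which Schwann cells express, had levels of −0.44 at the ISC level, 0.63 in the L3/4 control, 0.94 at the fused levels and −0.59 in the neighbouring-level control, and was also high on the arrays where BMP4 was high. Its ratio was −1.07 for the ISC level and 1.53 for the fused levels, past 2-fold in the directions of BMP4. The 6 smooth muscle genes summed to 31.0, 73.3, 42.9 and 66.1 at the ISC level, in the L3/4 control, at the fused levels and in the neighbouring-level control. Of these, TPM1 and DES were highest in the neighbouring-level control, at levels of 4.81 and 2.34. MYH11, ACTA2, TPM2 and CALD1 were highest in the L3/4 control, where BMP4 was highest. The 5 neutrophil genes summed to 6.46 at the ISC level, 11.3 in the L3/4 control, 282.7 at the fused levels and 5.07 in the neighbouring-level control. On the same arrays in that order the 14 skeletal muscle genes summed to 28.7, 28.3, 15.0 and 868.0. The 4 adipocyte genes summed to 7.83, 4.96, 19.9 and 6.06. LPL, ADIPOQ and LEP were highest at the fused levels and lowest in the L3/4 control. PPARG differed from them and was high on the arrays where BMP4 was high, with ratios of −1.99 for the ISC level and 2.63 for the fused levels. The 5 ligament and tendon genes summed to 687.2 at the ISC level, 604.3 in the L3/4 control, 562.2 at the fused levels and 665.5 in the neighbouring-level control. COL1A2, also one of the target genes, was the member that was high on the arrays where TGFB2 was high. OGN, osteoglycin, was lower on those arrays, and DCN, LUM and TNMD were lower at the ISC level than in the L3/4 control, and the 5 genes had a median of −0.23 in that comparison. By their brightest probes, all 14 muscle genes were well above background in the neighbouring-level control and at the ISC level, PYGM, MYOZ1 and RYR1 were not in the L3/4 control, and CASQ1 was not at the fused levels. KDR, a defining endothelial gene, was below that mark at the fused levels and in the neighbouring-level control. SOX17, VCAM1 and SELE, also listed for endothelium, were above it on all 4 arrays. The 4 endothelial genes summed to 2.10 at the ISC level, 2.87 in the L3/4 control, 7.44 at the fused levels and 2.08 in the neighbouring-level control. The sum at the fused levels came mostly from VCAM1, which had a level of 2.72 there in its brightest probe. For the fused levels against the L3/4 control, VCAM1 probes ranged from −0.21 to 2.27. SOX17, KDR and SELE were instead highest in the L3/4 control. Their ratios for the ISC level were −2.57, −1.32 and −0.72, beside 0.11 for VCAM1. The part of these cells in the TGFB2 and BMP4 ratios was not tested.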

How the data were processed

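Per the submitters' processing notes, the authors used Agilent Feature Extraction 12.0.3 to read the spots. Values in the deposited scanner files are linear intensities, and the processed signal used here is background-subtracted and detrended within each array, per the file headers. The deposited spot flags and signal errors come from the same software, per the file headers. The authors' deposited value table equals the processed signal times 1 factor per array (medians 515.5, 442.3, 498.4 and 504.0 for the ISC level, the control of L3/4, the fused levels and the control of L2/3 and L4/5). Its scale and direction follow from this, but the basis of the factors is unknown.

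The level used here is the log2 processed signal less the 75th percentile of an array's non-control spots (signals of 93.8, 53.4, 85.4 and 72.8 in the same order). Control spots and 3 to 7 outlier spots per array were left out, and 0 were saturated. Replicate spots of a probe had a median SD of 0.11 to 0.14 on the log2 scale.

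Accessions without versions were looked up, for names only, in RefSeq's gene table of mOryCun1.1, which named 3792 of 43603 probes (8.70%). The other probes, 24690 with Ensembl transcript names among them, are unnamed here, and no coordinates or sequences are given. The brightest probe by mean log2 level stands for a gene, and a feature is measured when well above background on both arrays. Genes were named by a fixed rule: TGFB2 and BMP4, the members of the list of 130 symbols, and the 3 named genes nearest in profile to each. The genes and lists were chosen with earlier results of these data known. Counting was tested on simulated data only for shifts well past 2-fold, which does not check calls close to that size. Alternatives were quantile normalization and normexp (limma 3.58.1, offsets 50 and 0, the latter chosen after seeing the data, on median spot and background intensities), centring on detected probes, the authors' scaling, the mean of a gene's probes, the other control, a wider filter and a size of 1.5-fold. Python 3.11.15 was used. A marker gene is not reported here.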

Additional observations from a re-analysis of the deposited data

Results flagged for a closer look

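In the genes named above, 8 of 15 had opposite directions, past the technical error of the spots, at the ISC level and at the fused levels, each set against the control of the same level (53.3%, beside 25.9% of 12741 features). With 1 array per group this difference was not tested. The ISC ratio minus the fused ratio was 2.22 for TGFB2 and −1.86 for BMP4. It was 3.34 for BGN, 2.31 for TIMP1, 1.51 for COL1A2, 1.18 for MMP2 and 1.08 for TIMP3, all higher at the ISC level, and −1.27 for ACTA2, lower there like BMP4. No group holds enough arrays to look for a sample that stands apart.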

How the results depend on the processing

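Under 6 other scalings, background corrections or the mean of a gene's probes, the ratios of TGFB2 and BMP4 kept their sign in 48 of 48 values and stayed within the technical error in 42. All 6 kept the array order of both genes. The exceptions came from normexp with an offset of 50, which by its construction compresses low signals. TGFB2 was then at 0.86 at the ISC level, −0.62 with fusion, −0.66 between the controls and 0.82 for the ISC level against the fused levels, and BMP4 at −0.85 for the ISC level and 0.60 between the controls, all under 2-fold. TGFB2 for the fused levels passed 2-fold with the mean of its probes, at −1.03. With the other control as the reference, TGFB2 was at 0.22 and BMP4 at −0.40 for the ISC level, and TGFB2 at 0.091 and BMP4 at −0.37 for the fused levels, where TGFB2 exceeded BMP4 by 0.46, the reverse of the matched comparison. With normexp at offset 50 the TGFB2 ratio minus the BMP4 ratio was −1.15 for the fused levels, −1.25 between the controls and 1.60 for the ISC level against the fused levels. List genes at 2-fold numbered 1 for the ISC level against the other control. With normexp at offset 50 and the matched controls they numbered 4 for the ISC level and 1 for the fused levels. At 1.5-fold they numbered 10 for the fused levels, 6 between the controls and 12 for the ISC level against the fused levels. Features at 2-fold numbered 2688 at the ISC level, 2327 with fusion, 2310 between the controls and 2147 for the ISC level against the fused levels. In that order they were 523, 705, 421 and 702 with normexp, 4657, 4030, 4219 and 3593 when well above background on 1 array sufficed, and 6092, 5055, 5124 and 4867 at 1.5-fold. Against the other control the ISC level had 1210. The authors' scaling moved the median of all features by 0.12 for the ISC level. The genes nearest in profile changed most, with 1 of 3 kept for TGFB2 with normexp at offset 50 or the mean of probes, and 1 of 3 for BMP4 with normexp at offset 0. No paired analysis was possible because each group has 1 array.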
